A study of Mus musculus with 2 samples.

Results

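The 9 genes described here, Tcf7, Lef1, Satb1, Klf2, S1pr1, Il7r, Bcl2, Pik3ip1 and Dapl1, are genes that naive and memory T cells express and that effector T cells turn down. They were taken by name from the 17232 gene rows of the deposited single-cell table, and all 9 were present. B16-OVA tumors, a mouse melanoma line that carries ovalbumin, were grown in Maoa WT mice and in Maoa KO mice. The KO animals are 129S-Maoa tm1Shih/J mice, a hypomorphic mutant of monoamine oxidase A, crossed back to C57BL/6J for more than 9 generations, and the study used 8- to 12-week-old females unless it says otherwise. At day 14 the immune cells of 10 combined tumors per genotype were sorted as DAPI-CD45.2+ cells, 10000 cells were loaded, and 1 Chromium 3′ V2 library was made per genotype. The mutation was present in every cell of the KO host, and the tumor cells were the same line in both groups. The library labelled WT held 2392 cells (28801253 unique molecular identifiers, UMIs) and that labelled KO 2630 cells (23702018 UMIs), with 13 barcode sequences found in both.

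With 1 library per genotype there was no replicate check, so no test was made between genotypes and values describe these 2 libraries. The mutated gene could not check the labels. Maoa had 7 UMIs over all cells of the library labelled WT and 15 over those labelled KO. Of these, 2 and 9 were in macrophages and monocytes (TAM/monocyte cells) and 3 and 5 in T cells. These few UMIs were thus not lower in the library labelled KO, and the mutant is hypomorphic. Directions below are therefore between the library labelled WT and the library labelled KO. T cells made up 1040 (43.5%) and 1119 (42.5%) of the cells, with medians of 9983.5 and 4828 UMIs per T cell, so depth differed between the libraries.

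Resting T cells depend on a shared program. TCF1 (encoded by Tcf7) and LEF1 are related HMG-box factors that bind β-catenin and keep naive and memory identity, and SATB1 is a chromatin organiser with a role in T cell development. KLF2 keeps T cells quiescent and activates S1pr1, the sphingosine 1-phosphate receptor with which lymphocytes leave tissue; CD69 pulls S1PR1 from the surface. The IL-7 receptor α chain (Il7r) carries the survival signal of resting lymphocytes, in part through the anti-apoptotic protein BCL2, while PIK3IP1 holds back PI3K signalling. Dapl1 is expressed in naive and memory T cells, and its role is less settled.

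All are protein-coding genes on mouse GRCm38 (GENCODE M21). Of the transcription factors, Tcf7 at chr11:52252371-52283014 and Satb1 at chr17:51736187-51833290 lie on the minus strand and Lef1 at chr3:131110471-131224356 and Klf2 at chr8:72319033-72321656 on the plus strand. The receptor genes are S1pr1 at chr3:115710433-115715072 and Il7r at chr15:9505788-9530176, both on the minus strand, and the others Bcl2 at chr1:106538178-106714274 (minus), Pik3ip1 at chr11:3330401-3342971 and Dapl1 at chr2:59484653-59505020 (both plus). Because FOXO, KLF, RUNX and TCF/LEF factors are known to act on genes of this program, promoters of the 9 genes were searched for 4 short motifs on both strands: GTAAACA (FOXO), CACCC (KLF), TGTGGTT (RUNX) and CTTTGA (TCF/LEF). RefSeq promoter windows on GRCm38.p6, from 250 bases before to 50 bases after a start site, were matched for 8 of the 9 genes, and the gene without one is S1pr1. GTAAACA was found in windows of Tcf7 and Dapl1 and in 3.65% of 32851 mouse promoter windows. TGTGGTT was found in that of Il7r (5.27% of all windows), CTTTGA in 1 window of Lef1 (16.0%), and CACCC in windows of 5 genes (57.5%). Matches of different motifs did not overlap. The 4 windows given are the 3 with the FOXO and RUNX words and that of Klf2, which differed between the libraries in 1 direction in the most cell groups; capitals mark the motif matches, read on the gene's own strand. A match of letters is a description and not a binding site.
Tcf7 chr11:52282546-52282845, minus strand: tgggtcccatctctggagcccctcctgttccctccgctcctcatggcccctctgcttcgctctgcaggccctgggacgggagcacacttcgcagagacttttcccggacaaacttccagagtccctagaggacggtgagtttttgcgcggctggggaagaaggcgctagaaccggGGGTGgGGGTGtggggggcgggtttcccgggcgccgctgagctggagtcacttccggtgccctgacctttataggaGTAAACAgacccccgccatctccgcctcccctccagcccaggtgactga
Dapl1 chr2:59484403-59484702, plus strand: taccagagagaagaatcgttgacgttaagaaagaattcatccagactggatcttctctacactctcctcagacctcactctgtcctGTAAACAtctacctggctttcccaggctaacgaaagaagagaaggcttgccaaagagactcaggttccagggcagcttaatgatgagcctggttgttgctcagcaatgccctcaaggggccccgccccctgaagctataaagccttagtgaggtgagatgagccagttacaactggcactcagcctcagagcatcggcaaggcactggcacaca
Il7r chr15:9529827-9530126, minus strand: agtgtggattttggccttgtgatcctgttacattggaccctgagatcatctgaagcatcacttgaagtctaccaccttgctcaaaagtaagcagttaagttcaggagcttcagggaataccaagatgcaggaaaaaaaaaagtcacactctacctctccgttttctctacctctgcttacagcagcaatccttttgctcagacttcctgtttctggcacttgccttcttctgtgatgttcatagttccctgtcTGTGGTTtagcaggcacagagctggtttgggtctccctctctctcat
Klf2 chr8:72318812-72319111, plus strand: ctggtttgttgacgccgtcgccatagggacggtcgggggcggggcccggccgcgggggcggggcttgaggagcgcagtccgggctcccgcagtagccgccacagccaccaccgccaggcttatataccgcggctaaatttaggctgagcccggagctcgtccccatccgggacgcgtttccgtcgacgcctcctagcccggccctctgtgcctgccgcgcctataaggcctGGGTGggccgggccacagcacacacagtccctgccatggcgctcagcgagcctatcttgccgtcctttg
The GTAAACA of Tcf7 began at position 2, counted from the start site, and that of Dapl1 at position -164. In Il7r the TGTGGTT lay at position 4, and in Klf2 the only match was GGGTG, the other strand of CACCC, at position -19.

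Cells were placed in classes by clustering without the 9 genes, so that no class rests on them. The levels are given as CPM, the UMIs of a gene per 1000000 UMIs in a group of cells. Intervals are 95% intervals, exact Poisson for levels and Clopper-Pearson for shares, and cover counting error only. The 9 genes fell into 2 kinds by class. Tcf7, Lef1, Satb1, S1pr1, Bcl2 and Dapl1 were mainly lymphocyte genes, while Klf2, Il7r and Pik3ip1 were also found at T cell levels or above in myeloid cells or plasmacytoid DCs (pDC).

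Tcf7 reached 24.3 CPM in T cells of the library labelled WT and 67.8 CPM in those labelled KO, and NK cells held 47.6 and 94.3 CPM. In TAM/monocyte cells it stood at 2.68 and 2.46 CPM. With cells thinned to 3500 UMIs and shallower cells left out, 14.5% (labelled WT) and 24.4% (labelled KO) of T cells had a Tcf7 UMI. This compares with 0.825% and 0.488% of TAM/monocyte cells, a class that should lack it and whose unthinned medians were 10365 and 8713 UMIs. Lef1 was likewise a lymphocyte gene, with 30.6 and 60.3 CPM in T cells, 32.9 and 31.2 CPM in NK cells and 1.93 and 3.24 CPM in TAM/monocyte cells. Summed UMIs follow the deep T cells, and in thinned cells Tcf7 was close in both classes, at 53.8 and 90.8 CPM in T cells and 59.3 and 95.8 CPM (39 and 60 UMIs) in NK cells. Lef1 was then 58.5 and 82.5 CPM in T cells and 33.4 and 33.5 CPM in NK cells, lower in NK cells of each library.

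Satb1 was higher in NK cells (122 and 139 CPM) than in T cells (37.8 and 70.1 CPM), and so was Bcl2, with 532 and 436 CPM in NK cells and 161 and 223 CPM in T cells. S1pr1 was low in NK cells, at 6.05 CPM (7 UMIs) and 11.5 CPM (14 UMIs), against 11.4 and 35.8 CPM in T cells, with intervals that overlapped in the library labelled WT (2.43 to 12.5 and 9.61 to 13.3 CPM). Dapl1 was the member most restricted to T cells, which held 92.5% of its UMIs in the library labelled WT. NK cells held 1 and 3 Dapl1 UMIs in all.

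Klf2 was present in every class. In the library labelled WT it ran from 49.0 CPM in DCs over 83.3 CPM in T cells, 127 CPM in TAM/monocyte cells, 169 CPM in NK cells and 170 CPM in pDC to 376 CPM in 7 B cells, and of these neighbours NK cells and pDC, and pDC and B cells, had overlapping intervals. This order depended on depth, since in thinned cells Klf2 of that library was 178 CPM in T cells, 181 CPM in TAM/monocyte cells and 196 CPM in both NK cells and pDC, with DCs at 55.5 CPM. On all UMIs TAM/monocyte cells held 50.6% of all Klf2 UMIs of that library and 54.4% of its Il7r UMIs, more than T cells (36.8% and 34.5%), but in thinned cells T cells held more of both (649 against 614 Klf2 UMIs and 354 against 314 Il7r UMIs). In the library labelled KO they held 46.5% and 26.7% of all UMIs of these genes, and T cells 34.2% and 53.8%. Within the TAM/monocyte class these genes sat in different clusters. Il7r had 183 and 168 CPM in an Inhba-led cluster and 6.66 and 11.3 CPM in a Serpinb10-led cluster, whereas Klf2 had 139 and 61.5 CPM in the former and 439 and 244 CPM in the latter. In TAM/monocyte cells without a UMI of Cd3d, Cd3e or Cd3g, Il7r was still at 86.8 and 36.9 CPM.

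In pDC, Il7r stood at 151 and 139 CPM and Pik3ip1 at 148 and 93.1 CPM, above the T cell levels of 48.5 and 86.0 CPM for Il7r and, in the library labelled KO, 43.9 CPM for Pik3ip1 (upper bound 27.8 CPM in that labelled WT). In thinned cells Il7r was 155 and 139 CPM in pDC and 97.3 and 133 CPM in T cells. A Ccl22-led DC cluster also held Il7r at 213 and 169 CPM, against 26.4 and 14.3 CPM in the Cd209a-led DC cluster. B cells were too few for a comparison, with 7 and 24 cells.

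**Figure D1:**
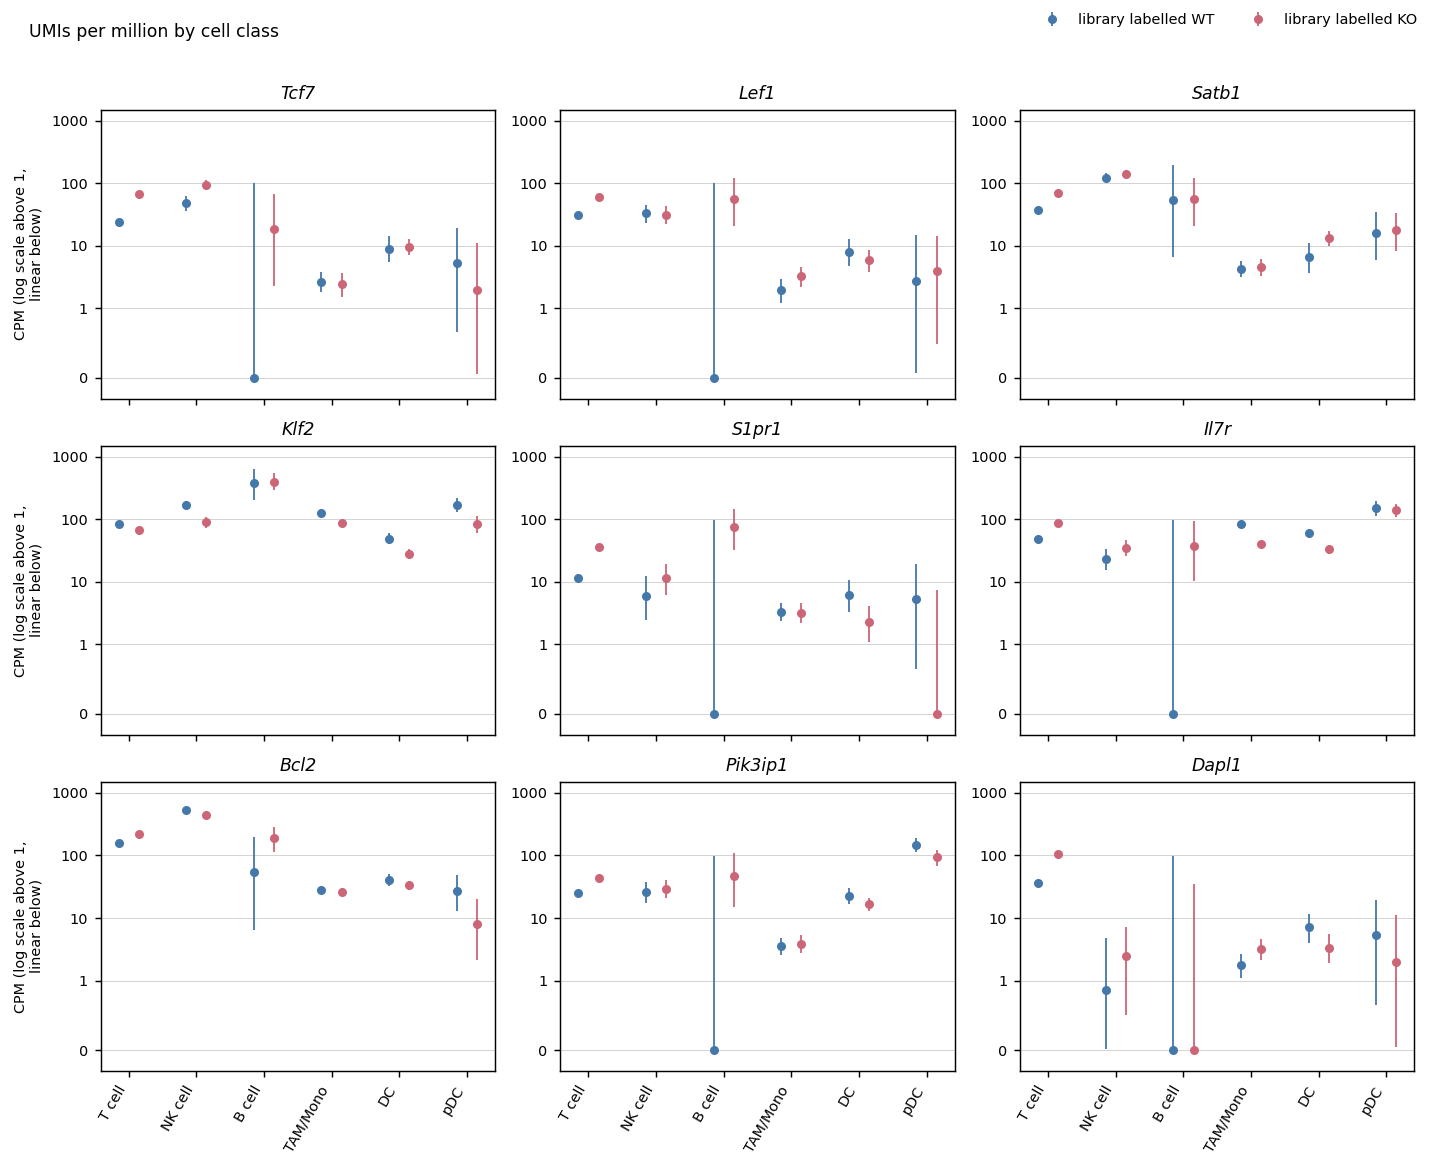
CPM of each gene (vertical axis, log scale above 1 and linear below) in 6 cell classes of the library labelled WT (blue) and of that labelled KO (red), with 95% Poisson intervals. Satb1 and Bcl2 are higher in NK cells than in T cells, as is Tcf7 on these summed UMIs but not clearly in thinned cells, Dapl1 stands out in T cells, and Klf2 and Il7r are also high in myeloid cells.

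T cells were clustered again on their own, without the 9 genes, into 10 clusters that were named from lists of markers. A naive-like cluster (143 cells labelled WT, 286 labelled KO), a checkpoint-high cluster with Pdcd1 and Havcr2 (282 and 156), a cycling cluster (179 and 63), a CD4 T cell cluster (85 and 108) and a regulatory T cell cluster (99 and 90) could be named. A cluster led by Klra7, a Ly49 receptor gene (92 and 279 cells), had as many naive-like as NK-type leading markers and is called by that gene. Smaller clusters were led by Gzmk, by interferon-response genes, by Gzmg and by Gpnmb. Cd8a or Cd8b1 UMIs were found in 68.5% and 79.4% of naive-like cells and in 98.9% and 96.8% of checkpoint-high cells. Every gene of the clustered cells counts as used by the clustering, so differences between clusters are descriptions, and Dapl1, Lef1, Satb1 and Tcf7 were among the leading genes of the naive-like cluster although they were kept out of it.

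All 9 genes were higher in naive-like than in checkpoint-high T cells in both libraries. The median ratio of the 9 was 3.96 on the log2 scale (15.5-fold) in the library labelled WT and 4.64 in that labelled KO. Tcf7 went from 3.30 CPM (12 UMIs) in checkpoint-high to 111 CPM (148 UMIs) in naive-like cells of the library labelled WT, and from 6.82 CPM (12 UMIs) to 177 CPM (300 UMIs) in that labelled KO. Lef1 differed 32.1-fold and 57.5-fold, and Klf2 20.4-fold and 28.5-fold, all on summed UMIs. The folds depended on T cells that also held myeloid RNA, described below. Without them Tcf7 went from 3.04 to 198 CPM (labelled WT) and from 5.62 to 199 CPM (labelled KO). Lef1 then went from 4.35 to 247 CPM and from 3.75 to 209 CPM. For S1pr1 the checkpoint-high cells held 9 UMIs in the library labelled WT and 0 in that labelled KO. On summed UMIs Bcl2 had the narrowest range, 2.89-fold and 4.22-fold, with 128 and 92.1 CPM left in checkpoint-high cells, and Dapl1 came next with 5.15-fold and 7.54-fold. Gzmb, the granzyme B gene of effector cells, was 1.12-fold lower in naive-like than in checkpoint-high cells of the library labelled WT and 4.03-fold lower in that labelled KO.

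Regulatory T cells held Il7r at 92.6 and 58.6 CPM and Lef1 at 25.1 and 33.1 CPM, but Tcf7 at only 2 and 3 UMIs, Dapl1 at 1 and 2 UMIs, and Bcl2 at 21 and 11 UMIs in 99 and 90 cells, its lowest CPM among the named clusters. On summed UMIs the CD4 T cell cluster had Il7r at 130 and 156 CPM, close to the naive-like cluster (158 and 164 CPM). In thinned cells Il7r was 192 and 196 CPM in the CD4 T cell cluster and 286 and 197 CPM in the naive-like cluster. It was then close only in the library labelled KO. Tcf7 at 79.3 and 69.8 CPM and Satb1 at 43.3 and 38.2 CPM were below the naive-like cluster (111 and 177 CPM, and 168 and 184 CPM). Interferon-response cells held Tcf7 at 86.6 and 104 CPM, Satb1 at 122 and 110 CPM and Bcl2 at 425 and 375 CPM. Their Lef1 level was 94.5 and 51.9 CPM, S1pr1 27.6 and 28.8 CPM and Dapl1 31.5 and 219 CPM, each below the naive-like level of the same library (Lef1 137 and 180 CPM, S1pr1 42.8 and 77.4 CPM, Dapl1 155 and 366 CPM), although the intervals of S1pr1 overlapped in both libraries and those of Lef1 in that labelled WT. In the Gzmk-led cluster Klf2 was 133 and 77.5 CPM and Bcl2 216 and 267 CPM, below the naive-like levels, while Tcf7 had 4 and 8 UMIs. The Gzmg-led cluster, the one with the highest Gzmb, had no Tcf7 or Dapl1 UMI in 51 and 15 cells.

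Klra7-led cells had Tcf7 at 47.5 CPM and Lef1 at 32.0 CPM in the library labelled WT and at 135 and 90.8 CPM in that labelled KO, below the naive-like levels of the latter (177 and 180 CPM). Their Bcl2 level was 355 and 588 CPM on summed UMIs, beside 532 and 436 CPM in NK cells. In thinned cells Bcl2 was 736 and 620 CPM in Klra7-led cells and 597 and 431 CPM in NK cells, so the order in the library labelled WT turned. Dapl1 stayed at 35.1 and 65.0 CPM, against 155 and 366 CPM in naive-like cells. Klrb1c, which encodes NK1.1, had a UMI in 5.43% (labelled WT) and 28.7% (labelled KO) of Klra7-led cells, and Cd8a or Cd8b1 in 62.0% and 44.4%, so the makeup of the cluster differed between the libraries.

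**Figure D2:**
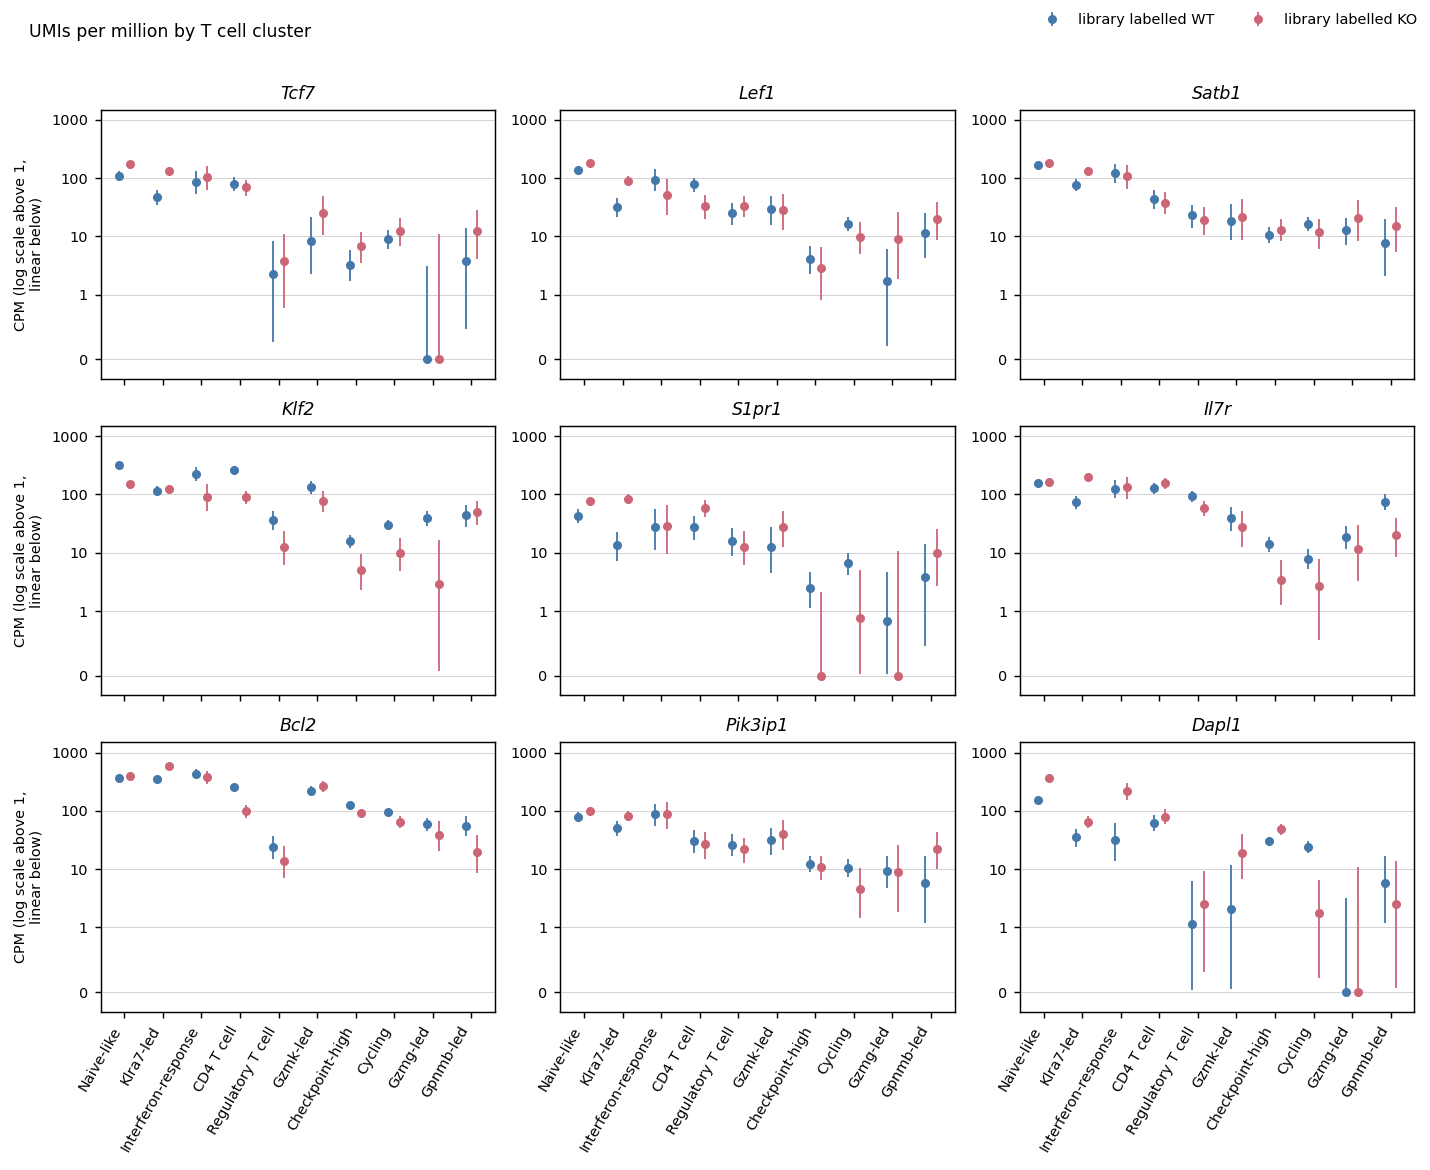
CPM of each gene (vertical axis, log scale above 1 and linear below) in the 10 T cell clusters of the library labelled WT (blue) and of that labelled KO (red), with 95% Poisson intervals. Levels are high in the naive-like cluster on the left and low in the checkpoint-high, cycling and Gzmg-led clusters, and Klf2 is lower in the library labelled KO in most clusters.

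Over 26 points, the classes other than T cells and the T cell clusters of both libraries with at least 20 cells, the profiles of the 9 genes (log2 of CPM + 1) were correlated with r from 0.10 (Bcl2 with Il7r) to 0.87 (S1pr1 with Lef1). The points share libraries and depth, and these are descriptions. Tcf7 ran closest to Satb1 (r = 0.86) and Lef1 (0.84), while Dapl1 and Klf2 were barely related (0.14). Of 8558 other genes, those most like the mean profile of the 9 were Slc17a9 (0.92), Rps14 (0.89), Rpl19 (0.88), Cd69 (0.87) and Txnip (0.86). For Tcf7 alone they were Slc17a9 (0.83), Gramd3 (0.83), Rps21 (0.82), 1810041H14Rik (0.82) and Plcxd2 (0.82). Ribosomal protein genes recur among them, and the ribosomal share of UMIs was 42.7% and 47.8% in naive-like cells against 33.8% and 33.2% in checkpoint-high cells.

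In single T cells the genes were found together. After thinning, an Il7r UMI was present in 55.0% of Tcf7-positive and 15.9% of Tcf7-negative T cells of the library labelled WT, and in 44.1% and 23.4% in that labelled KO. Klf2 was found in 64.4% of S1pr1-positive and 20.1% of S1pr1-negative T cells (labelled WT), and in 47.5% and 19.0% (labelled KO). For the egress receptor and CD69, S1pr1 was present in 11.6% of Cd69-positive and 6.11% of Cd69-negative T cells (labelled WT), and in 15.3% and 14.7% (labelled KO), beside 0.722% and 0.977% of TAM/monocyte cells. No doublet caller was run, so 2 genes in 1 barcode need not be 2 genes in 1 cell. Over all T cells, Tcf7 and Pdcd1, the PD-1 gene, were seldom seen in one cell. A Tcf7 UMI was found in 4.98% of Pdcd1-positive and 24.1% of Pdcd1-negative T cells (labelled WT) and in 7.94% and 31.3% (labelled KO). Both genes were found in 2.50% and 2.35% of T cells.

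At least 3 of the 9 genes had a UMI in 25.3% of thinned T cells of the library labelled WT (263 of 1040, 22.7% to 28.0%) and in 40.2% in that labelled KO (377 of 938, 37.0% to 43.4%), while 181 T cells labelled KO were too shallow to be thinned. Without any of the 9 were 36.9% and 27.4%. Within the naive-like cluster the shares with at least 3 were 81.1% and 77.9%, with overlapping intervals (73.7% to 87.2% and 72.1% to 82.9%), and within checkpoint-high cells 3.55% and 0.662%. The shares of naive-like cells thus did not differ beyond counting error, unlike those of all T cells.

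**Figure D3:**
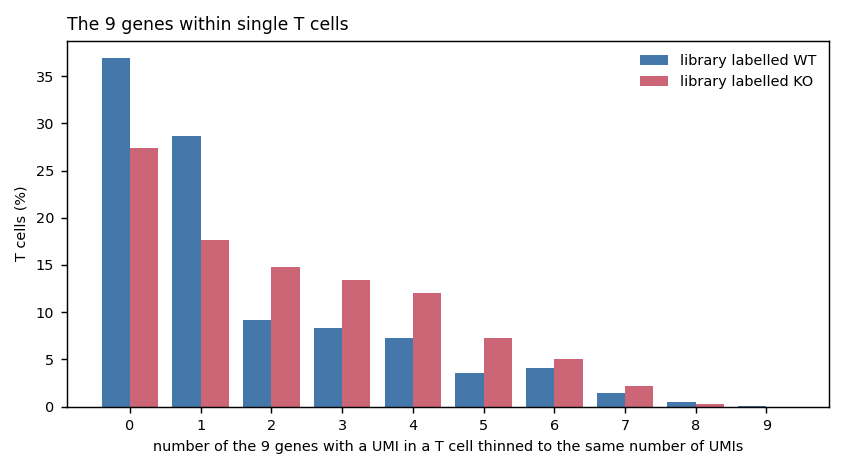
Share of T cells (vertical axis, percent) by how many of the 9 genes had a UMI, in the library labelled WT (blue) and in that labelled KO (red). Cells were thinned to 3500 UMIs and shallower cells left out. Cells with 0 or 1 gene are more frequent in the library labelled WT, those with 2 to 7 in that labelled KO.

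Between the libraries, T cells labelled KO held higher levels of 8 of the 9 genes, while Klf2 went the other way. Genes were counted as past the fold when they differed at least 1.5-fold and the exact binomial interval of their UMI split left out 0 on the log2 scale. Of the transcription factors, Tcf7 was 24.3 and 67.8 CPM (321 and 574 UMIs; log2 ratio 1.48, 1.28 to 1.68), Lef1 30.6 and 60.3 CPM (0.98, 0.79 to 1.17) and Satb1 37.8 and 70.1 CPM (0.89, 0.72 to 1.06). Klf2 was 83.3 and 66.7 CPM (1101 and 565 UMIs; -0.32, -0.47 to -0.17), within the fold. Of the receptors, S1pr1 was 11.4 and 35.8 CPM (1.65, 1.37 to 1.95) and Il7r 48.5 and 86.0 CPM (0.83, 0.67 to 0.98). The survival and signalling genes Bcl2 (161 and 223 CPM; 0.47, 0.38 to 0.56) and Pik3ip1 (330 and 372 UMIs; 0.81, 0.60 to 1.03) were higher in the library labelled KO, Bcl2 within the fold. Dapl1 was 36.6 and 105 CPM (484 and 885 UMIs; 1.51, 1.35 to 1.68).

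Of the 9 genes 7 were past the fold and higher in the library labelled KO and 0 lower, with a median log2 ratio of 0.89. Over 8567 genes with at least 100 UMIs in T cells the median was -0.06, with 4.72% higher and 6.49% lower. In the smaller groups below, members are counted at any number of UMIs, while the background keeps to genes with at least 100, so members with few UMIs had to differ more widely to be counted. In summed UMIs fewer cells of a type and less RNA per cell cannot be told apart, and the mix of T cells differed. Naive-like cells were 13.8% of T cells in the library labelled WT (11.7% to 16.0%) and 25.6% in that labelled KO (23.0% to 28.2%), Klra7-led cells 8.85% and 24.9%, and checkpoint-high cells 27.1% and 13.9%. The T cells outside the naive-like and Klra7-led clusters had a median of 0.14 for the 9 genes.

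The depth of the cells moved with the result as well. T cells that also held myeloid RNA, by 3 or more UMIs over the Cd3d, Cd3e and Cd3g genes and 5 or more over Lyz2, C1qa, C1qb, C1qc, Csf1r and Cd68, came to 27.2% (labelled WT) and 12.3% (labelled KO) of the T cells. They were deep, with medians of 20448 and 18338 UMIs against 7119 and 4580 in the other T cells, and took 48.4% and 30% of all T cell UMIs. With every T cell given the same weight, as the mean of per-cell CPM, the median of the 9 was 0.59, with 5 genes at least 1.5-fold higher and Klf2 lower, at 182 and 109 CPM, where 5.15% of all genes were higher and 10.6% lower by that fold alone. With cells thinned to 3500 UMIs it was 0.45, Tcf7, S1pr1 and Dapl1 were past the fold and higher, and Klf2 was lower (background 3.18% higher, 7.20% lower). Thinning left out cells below 3500 UMIs, 295 labelled KO and 0 labelled WT, so the thinned libraries were not cut alike. Among them were 181 T cells, with 42 naive-like, 67 Klra7-led, 28 CD4 T cell cluster and 13 interferon-response cells, and 86 NK cells. Without the T cells with myeloid RNA the median was 0.66, 7 genes were past the fold and higher, and Klf2 was lower at 134 and 86.7 CPM (log2 -0.63; background 4.52% higher, 7.04% lower).

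When the T cell clusters of both libraries were given 1 common mix, the median of the 9 dropped to 0.31, and with the cells thinned as well it was -0.23. On that last scale Tcf7 was 73.5 and 74.3 CPM, Lef1 78.6 and 66.8 CPM (log2 -0.23) and Il7r 125 and 110 CPM (-0.18). Dapl1 (72.5 and 114 CPM; log2 0.65) and S1pr1 (29.9 and 41.6 CPM; 0.48) stayed higher in the library labelled KO. Klf2 was 234 and 84.0 CPM (-1.48) and Bcl2 372 and 268 CPM (-0.47).

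**Figure D4:**
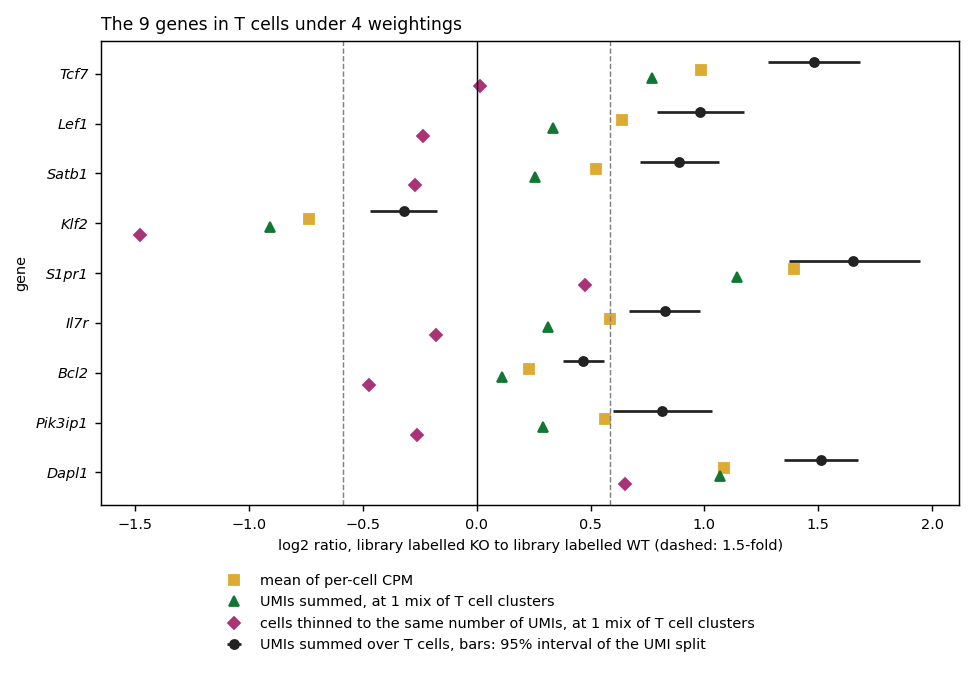
Log2 ratio of the library labelled KO to that labelled WT (horizontal axis) for each gene in T cells, as summed UMIs with the 95% interval of the UMI split (black), mean of per-cell CPM (yellow), summed UMIs at 1 mix of clusters (green) and thinned cells at 1 mix (purple). All genes move left from the first to the last weighting, Tcf7 from 1.48 to 0.02, while Klf2 goes from -0.32 to -1.48.

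Within the naive-like cluster Klf2 was lower in the library labelled KO, at 322 and 154 CPM (429 and 260 UMIs; log2 -1.07). Dapl1 was higher, at 155 and 366 CPM (206 and 620 UMIs; 1.24), as were Tcf7 at 111 and 177 CPM (0.67) and S1pr1 at 42.8 and 77.4 CPM (0.85), while Lef1, Satb1, Il7r, Bcl2 and Pik3ip1 were within the fold. In all 3 genes were higher and 1 lower, where the background of the cluster was 4.51% higher and 18.1% lower. The 19 naive-like cells of the library labelled WT with myeloid RNA, 13.3% of its naive-like cells, held 49.8% of the UMIs, against 18.5% in that labelled KO. Without such cells Tcf7 was 198 and 199 CPM, S1pr1 77.9 and 92.1 CPM and Dapl1 282 and 370 CPM, all within the fold. Klf2 was then 606 and 180 CPM (log2 -1.75, -1.99 to -1.52), Il7r 295 and 194 CPM (-0.60) and Bcl2 689 and 452 CPM (-0.61), the 3 genes past the fold and lower, with 0 higher (background 3.45% lower, 2.74% higher). With the cells thinned instead, Klf2 was lower and Dapl1 higher (222 and 386 CPM; log2 0.80, 0.49 to 1.12), while Il7r (-0.54) and Bcl2 (-0.45) were within the fold (background 4.97% lower, 2.26% higher). The share of thinned naive-like cells with a UMI was 63.6% and 38.1% for Klf2, 46.2% and 48.0% for Tcf7, 23.8% and 23.0% for S1pr1 and 33.6% and 46.3% for Dapl1.

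In Klra7-led cells the summed UMIs gave 8 of the 9 genes higher in the library labelled KO and 0 lower (background 8.35% higher, 27.5% lower), from Pik3ip1 at 50.6 and 82.2 CPM (log2 0.69) to S1pr1 at 13.4 and 84.5 CPM (2.61). Here 18 cells with myeloid RNA held 59.4% of the UMIs of the library labelled WT and 9 such cells 3.81% in that labelled KO. Without them S1pr1 was the only gene past the fold and higher, at 30.6 and 83.8 CPM (12 and 103 UMIs; 1.40, 0.59 to 2.45), and Klf2 was lower at 257 and 124 CPM (-1.06; background 2.19% higher, 3.82% lower). Tcf7 stood at 107 and 136 CPM and Bcl2 at 802 and 596 CPM. With the cells thinned, Klf2 was past the fold and lower in Klra7-led cells (-0.64) and S1pr1 (1.85), Lef1 (0.84) and Il7r (0.66) higher (background 7.50% lower, 2.56% higher).

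Checkpoint-high cells held 51 Il7r UMIs in the library labelled WT and 6 (3.41 CPM) in that labelled KO (log2 -1.94), and Klf2 at 15.7 CPM (57 UMIs) and 5.12 CPM (9 UMIs) (-1.55). Dapl1 was higher there, at 109 and 85 UMIs (48.3 CPM in that labelled KO; 0.69), so that 1 gene was higher and 2 lower (background 2.35% and 3.93%). Without the cells with myeloid RNA Dapl1 was 48 and 25 UMIs (20.9 and 23.4 CPM; 0.18, -0.59 to 0.89), within the fold, and with the cells thinned it was 13 and 25 UMIs (1.82, 0.82 to 2.93), past it. In interferon-response cells Dapl1 had 8 and 38 UMIs (31.5 and 219 CPM). In cycling cells Klf2 was 30.4 and 9.86 CPM (-1.57), Dapl1 79 and 2 UMIs and S1pr1 22 and 1 UMIs, which made 3 genes lower and 0 higher (background 3.83% and 2.57%). S1pr1 was within the fold without the cells with myeloid RNA (9 and 1 UMIs; -1.20, -7.16 to 1.15), where Bcl2 was lower (-0.64). With the cells thinned the ratios of Klf2 (-1.36, -3.92 to 0.16; 25 and 3 UMIs) and Dapl1 (-2.04, -7.97 to 0.09; 17 and 1 UMIs) remained below 0 but their wider intervals held it, S1pr1 had 5 and 0 UMIs, and Bcl2 was past the fold (-1.52; background 4.19% lower, 2.32% higher).

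The CD4 T cell cluster had 1 gene higher and 3 lower in the library labelled KO (background 2.83% and 4.40%). S1pr1 was 27.4 and 58.1 CPM (19 and 35 UMIs; log2 1.07), while Lef1 was 77.9 and 33.2 CPM (-1.21), Klf2 260 and 89.7 CPM (-1.52) and Bcl2 254 and 98.0 CPM (-1.36). With the cells thinned S1pr1 (0.66, -0.30 to 1.68) and Lef1 (-1.07, -2.35 to 0.01) were within the fold and Tcf7 was lower (-1.04), which made 0 higher and 3 lower (background 1.47% and 3.67%). Without the cells with myeloid RNA S1pr1 (0.98, 0.12 to 1.94) and Lef1 (-1.20, -2.10 to -0.39) were past the fold. Cells with a Cd8a or Cd8b1 UMI were 40.0% and 25.9% of this cluster. Regulatory T cells had Klf2 at 36.6 and 12.7 CPM (32 and 10 UMIs; -1.47) and Il7r at 92.6 and 58.6 CPM (-0.65), 2 genes lower and 0 higher (background 3.84% and 1.99%). In thinned cells Il7r was -0.62 (-1.37 to 0.07), an interval that held 0, and Klf2 and Bcl2 were past the fold and lower on 15 and 4 UMIs and 14 and 1 UMIs (background 3.46% lower, 2.08% higher). Without the cells with myeloid RNA Il7r was -0.88 (-1.51 to -0.28), past it.

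In NK cells Tcf7 was 47.6 and 94.3 CPM (55 and 115 UMIs; log2 0.98) and Klf2 169 and 89.4 CPM (196 and 109 UMIs; -0.92), 1 gene higher and 1 lower (background 3.09% and 4.01%). In TAM/monocyte cells Il7r was 84.8 and 40.4 CPM (1011 and 362 UMIs; -1.07) and Dapl1 21 and 29 UMIs, 1 lower and 1 higher (background 4.75% and 4.18%). Dapl1 was within the fold without the cells with T cell and myeloid RNA (17 and 16 UMIs; 0.14) and with the cells thinned (0.80, -0.58 to 2.32), while Klf2 was past the fold and lower in both (-0.66 and -0.80). The Inhba-led cluster, the one with the most Il7r, was 14.5% (labelled WT) and 4.94% (labelled KO) of all cells, and Il7r within it was 183 and 168 CPM.

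In DCs Il7r (59.5 and 33.1 CPM; log2 -0.85), Klf2 (49.0 and 28.3 CPM; -0.79) and S1pr1 (13 and 10 UMIs; -1.44) were lower and Satb1 (14 and 59 UMIs; 0.96) higher, 3 genes against 1 (background 6.57% lower and 2.55% higher). DCs without a Cd3 UMI held 1 and 0 S1pr1 UMIs. Without the cells with T cell and myeloid RNA the interval of S1pr1 held 0 (3 and 2 UMIs; -1.66, -5.34 to 1.37), Satb1 was higher (1.60, 0.36 to 3.42) and Pik3ip1 lower (-0.80). With the cells thinned S1pr1 was lower (6 and 2 UMIs; -2.58, -6.12 to -0.30), and the interval of Satb1 held 0 (3 and 17 UMIs; 1.12, -0.49 to 3.72). In pDC Klf2 was 170 and 83.2 CPM (-1.02) and Pik3ip1 148 and 93.1 CPM (-0.67), 2 lower and 0 higher (background 3.73% and 3.22%). Thinned, Klf2 was lower (-1.40) and Pik3ip1 within the fold (-0.36, -1.25 to 0.54).

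Klf2 was past the fold and lower in the library labelled KO in 11 of 14 groups, the 10 T cell clusters and 4 other classes, and in 13 of 14 without cells with myeloid RNA. All groups come from the same 2 libraries, and how many other genes were past the fold in as many groups was not counted. On summed UMIs the lower background was 8.67% in Gzmk-led, 9.21% in interferon-response, 5.43% in Gzmg-led and 8.84% in Gpnmb-led cells. Il7r was past the fold and lower in 5 and higher in 1, and Dapl1 higher in 6 and lower in 1. Without cells with myeloid RNA these were 5 lower and 0 higher for Il7r and 1 higher and 1 lower for Dapl1, and in thinned cells 3 lower and 1 higher for Il7r, 3 higher and 0 lower for Dapl1 and 11 lower for Klf2. Immediate early and heat-shock genes respond to the handling of cells, and 10 of these, chosen after the values were seen, are given beside it. In T cells (background 4.72% higher, 6.49% lower) 4 of the 10 were higher in the library labelled KO, among them Fos (53.4 and 119 CPM) and Junb (493 and 909 CPM), 1 was lower, Hspa1a (78.4 and 48.4 CPM), and 5 were within the fold. In naive-like cells Hspa1a was 85.7 and 11.8 CPM, while in regulatory T cells, where Klf2 was also lower, it was 13.7 and 61.1 CPM. The part of handling in the Klf2 difference was not tested.

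**Figure D5:**
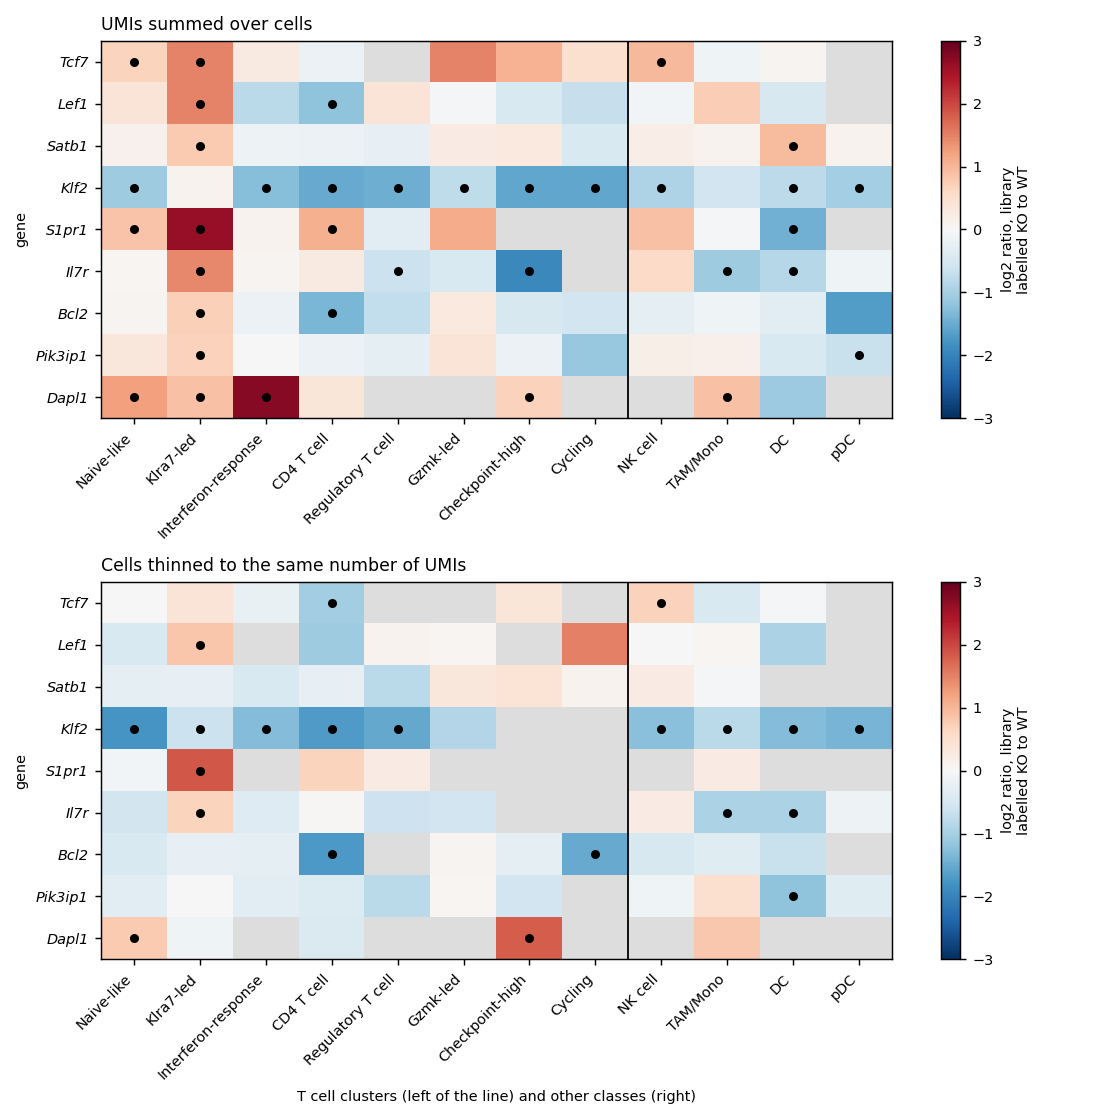
Log2 ratio of the library labelled KO to that labelled WT (colour) for each gene (rows) in 8 T cell clusters and 4 other classes (columns), from summed UMIs (upper) and from cells thinned to 3500 UMIs (lower). Dots mark ratios past the fold and grey fields have 3 UMIs or fewer in either library. The row of Klf2 is blue wherever it is coloured except for Klra7-led cells in the upper map, and many red fields of the naive-like and Klra7-led columns turn pale or blue in the lower map.

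Genes of the same pathways were counted in T cells on summed UMIs, against the background of 4.72% higher and 6.49% lower. Of 18 other quiescence and homing genes 8 were higher in the library labelled KO and 0 lower. Id3, an inhibitor of E proteins, was 6.66 and 20.4 CPM (log2 1.61), Bach2, a repressor of effector genes, 3.56 and 9.09 CPM (1.35), and Klf3, a relative of Klf2, 13.2 and 32.2 CPM (1.28). Foxo1, the factor upstream of Klf2 and Il7r, was 21.9 and 29.9 CPM (0.45), within the fold. Of 13 memory-precursor and stem-like genes 6 were higher and 0 lower, with Id3 and Ccr7 among the genes in both lists. Gpr183 was 20.7 and 40.3 CPM (0.96), whereas Slamf6 (0.41) and Xcl1 (0.34) were within the fold.

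The signalling partners of the members showed little of this. Of 16 genes of IL-7 receptor signalling and survival 1 was higher, Socs3, at 40.4 and 64.0 CPM (log2 0.66), and 0 lower. Of 16 PI3K, AKT and mTOR genes and of 7 genes of the sphingosine 1-phosphate axis, 0 were past the fold in either direction, and Cd69 was 41.3 and 61.5 CPM (0.57). Among 10 WNT pathway partners the corepressor gene Tle4 was higher (10.1 and 19.7 CPM; 0.96) and Ctbp1 lower (122 and 73.9 CPM; -0.73). The effector and checkpoint list was the counterpart, with 8 of 22 lower and 1 higher. Prf1 (perforin) had 1028 and 254 UMIs (log2 -1.37), Gzmk 135 and 75.1 CPM (-0.84), Havcr2 75.9 and 43.8 CPM (-0.79) and the chemokine gene Ccl5 3047 and 5439 CPM (0.84). These counts rest on summed UMIs and on the mix of clusters. At 1 mix Id3 was 1.04 on the log2 scale and Gzmb -0.59, whereas Ccr7 went from 0.76 to 0.23, Pdcd1 from -0.72 to -0.51, Slamf6 from 0.41 to 0.16 and Tox from -0.53 to -0.29.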

How the data were processed

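The authors sequenced 1 Chromium 3′ V2 library per genotype, counted UMIs with Cell Ranger on mm10 per the labels, kept cells with at least 300 UMIs, 100 genes and at most 5% mitochondrial reads, and normalised them in Seurat. The labels call the deposited table raw counts, but its entries are on a natural log scale after each cell was brought to a total of 10000. Undoing the log and dividing by the lowest nonzero entry of a cell returned whole UMIs (within 0.01) at 100% of entries in 5022 cells. All values here use these UMIs.

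Cells were clustered in Seurat 5.3.0 (R 4.3.3) with variable genes by mean and dispersion less the 9 members, depth regressed out, 13 PCs and resolution 0.8, giving 14 clusters, and T cells again, giving 10. Clusters were named from markers with at least 3 detected. No doublet caller was run. T cells with myeloid RNA are counted in the report. CPM, intervals, ratios with 0.5 UMIs added and thinning were computed in Python 3.11.15 with scipy 1.17.1, and the ratio and interval code was tested on simulated data. Median depth was 9887.5 (labelled WT) and 6945.5 (labelled KO) UMIs per cell. No test between genotypes was possible, and intervals cover counting error only. The background keeps genes with at least 100 UMIs, and members are counted at any number. Thinning used 3500 UMIs per cell, the 10th percentile of T cells rounded down. Cells below it were left out, 0 labelled WT and 295 labelled KO. Gene positions come from GENCODE M21 and promoters from RefSeq (GRCm38.p6).

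The members and lists were chosen with earlier results of these data known. Named were the 9 members, up to 4 genes per list with the largest ratio past the fold, genes given as background of a member, and the 5 genes of most like profile. A gene that this rule names is not reported here. Alternatives changed the clustering, the cells kept, the weighting and the thresholds, and the closing section gives their effect.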

Additional observations from a re-analysis of the deposited data

Results flagged for a closer look

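Several members were past the fold in opposite directions in different cells, and none of these differences between cell groups was tested. Il7r was higher in the library labelled KO in T cells (log2 ratio 0.83) and lower in TAM/monocyte cells (-1.07) and DCs (-0.85). Among T cell clusters it was higher in Klra7-led cells (1.45) and lower in checkpoint-high (-1.94), regulatory (-0.65) and Gpnmb-led cells (-1.85), the last a cluster of 18 and 16 cells with Lyz2 at 2378 and 2689 CPM. Without cells with myeloid RNA the Klra7-led value was 0.37 (-0.03 to 0.80), within the fold, and Gpnmb-led cells had 0 Il7r UMIs in either library. With cells thinned the Klra7-led value was 0.66 (0.19 to 1.18), past the fold. The Gpnmb-led value was then -0.36 (-2.68 to 1.66; 6 and 4 UMIs) and the regulatory one -0.62 (-1.37 to 0.07), both with intervals that held 0. S1pr1 was higher in T cells (1.65) and lower in DCs (-1.44), the latter within the fold without cells with T cell and myeloid RNA (3 and 2 UMIs; -1.66, -5.34 to 1.37) and past it with cells thinned (-2.58), and Pik3ip1 higher in T cells (0.81) and lower in pDC (-0.67), the latter within the fold with cells thinned (-0.36, -1.25 to 0.54).

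Lef1 was higher in Klra7-led T cells (1.49) and lower in CD4 T cells (-1.21). Bcl2 was higher in Klra7-led cells (0.72) and lower in CD4 T cells (-1.36) and Gpnmb-led cells (-1.43). The Klra7-led value of Bcl2 was -0.43 without the cells with myeloid RNA, and that of Lef1 was 0.37. With cells thinned, the Klra7-led value of Bcl2 was -0.25 and that of Lef1 0.84 (0.12 to 1.70), the latter past the fold. Lef1 in CD4 T cells was then -1.07 (-2.35 to 0.01), within the fold. Bcl2 in Gpnmb-led cells had 3 and 2 UMIs without cells with myeloid RNA, with an interval that held 0. With cells thinned it was past the fold and lower (9 and 1 UMIs; -2.49, -8.45 to -0.15).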

How the results depend on the processing

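No paired analysis was possible because each genotype has 1 library and no test was made. The median log2 ratio of the 9 genes in T cells (0.89) was above 0 under all 15 alternatives, of which the 2 resolutions of the T cell clusters cannot change it. It was 0.57 with clusters rebuilt without T-myeloid cells (by a wider list of myeloid genes) and 0.25 in a CD3 gate of 158 and 250 cells. In that gate the median of the 9 lower bounds was -0.10 and that of the 9 upper bounds 0.67, which is not an interval of the median. The median ratio was 0.59 as the mean of per-cell CPM, 0.45 thinned, 0.66 without cells with myeloid RNA and 1.12 in cells with Cd8 and without Cd4 or Klrb1c. Pik3ip1 was -0.048 in the CD3 gate, and Klf2 was 0.021 in the Cd8 cells. At 1 mix of clusters the median (0.31) did not keep its direction: it was -0.23 without depth regression, -0.21 with clusters rebuilt without T-myeloid cells and -0.23 (-0.2348) thinned, and it was 0.059 with 20 PCs and 0.094 without the Klra7-led cluster.

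Of the values whose interval left out 0, thinning turned Tcf7 (-0.022), Lef1 (-0.46) and S1pr1 (-0.082) in naive-like cells and Dapl1 (-0.14), Satb1 (-0.24), Bcl2 (-0.25) and Pik3ip1 (-0.010) in Klra7-led cells below 0. In these clusters Il7r (-0.54), Satb1 (-0.27), Bcl2 (-0.45) and Pik3ip1 (-0.31) of naive-like and Klf2 (-0.64) of Klra7-led cells, whose intervals held 0, were then below it too. The naive-like to checkpoint-high median was 4.80 without depth regression and 4.57 without T-myeloid cells in the library labelled WT, and 3.85 with 20 PCs and 3.74 with another random seed in that labelled KO. The difference in cells with at least 3 of the 9 genes (14.9 percentage points) was 10.6 without T-myeloid cells, and for at least 2 genes it was 20.6. Genes past the fold were 11.2% of those counted, and 2.72% at 2-fold. The thinned values by cluster and at 1 mix of clusters, those without cells with myeloid RNA, the Cd8 cells and the left-out clusters were chosen after seeing the data. One library per genotype limits all comparisons, and the depth gap limits shares of cells without thinning.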
